A study of Macaca mulatta with 27 samples.

Results

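Proteases that cut the extracellular matrix and the inhibitors that hold them in check were followed in rhesus pluripotent stem cells (PSCs), before and after culture in 7 media meant to bring them to naive pluripotency. The 9 genes, of 17967 gene symbols in the count tables, were the matrix metalloproteinases MMP2, MMP9, and MMP14, the plasminogen activator PLAU, the tissue inhibitors of metalloproteinases TIMP1, TIMP2, and TIMP3, and the inhibitors SERPINE2 and A2M. They were picked by symbol with earlier results of these data known, and A2M was chosen on its rise in all 7 protocols. For A2M against primed cells the levels are thus a description with no test. Counts of genes that differed from primed cells are therefore given over the other 8.

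Bulk mRNA was sequenced in 27 libraries, 6 of primed cells and 3 for each of E-NHSM, TL-CDK8i, TL2i, 4i/L/b, NHSM-v, t2iLGöY, and LCDM (EPS). All came from LyonES-tGFP-(S3), a single clone of rhesus embryonic stem cells that carries tauGFP driven by the CAG promoter and a lentiviral STAT3-ERT2, a STAT3 that tamoxifen switches on. TL2i cells received tamoxifen, LIF, and inhibitors of MEK and GSK3β. TL-CDK8i cells received a CDK8 and CDK19 inhibitor in place of the MEK and GSK3β inhibitors. The other 5 protocols were used without tamoxifen, so STAT3-ERT2 was present but inactive, as in primed cells. Primed cells were split mechanically in clumps and reprogrammed cells with trypsin or TrypLE to single cells, so medium and passaging cannot be told apart in any comparison with primed cells. The labels do not say whether the libraries of a group came from separate cultures or passages, and p-values measure only the spread between these libraries, which may be technical.

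Matrix metalloproteinases are zinc enzymes made as inactive proenzymes. MMP2 and MMP9 are secreted gelatinases that digest denatured collagen and the type IV collagen of basement membranes, and MMP14 is anchored in the membrane, where it cuts the proenzyme of MMP2 with TIMP2 as an adaptor. PLAU, or urokinase, turns plasminogen into plasmin, and TIMPs block the active site of metalloproteinases. SERPINE2, or protease nexin, traps thrombin, plasmin, and urokinase, and A2M, alpha-2-macroglobulin, encloses proteases of many classes and is cleared through the receptor LRP1.

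Libraries held 7111886 to 20760914 counts, with a median of 12201171. Levels are CPM, gene counts relative to the library total after TMM scaling over the 27 libraries, and 3 counts, taken as the limit that a count of 0 allows, were worth 0.141 to 0.429 CPM. These limits cover counting error only, since reads carry no molecular identifiers. All 9 genes passed the filter on low counts in every comparison. CPM does not account for transcript length, so levels are compared between groups for 1 gene and not between genes. Core pluripotency genes, summed over a list of 10, were at 6247 to 7116 CPM in primed, 7277 to 7345 in E-NHSM, 1947 to 2663 in TL-CDK8i, 545 to 631 in TL2i, and 132 to 485 CPM in the other 4 groups. NANOG was at 3 counts or fewer in every library of 4i/L/b, NHSM-v, t2iLGöY, and LCDM (EPS). All 10 were called lower than in primed cells in TL-CDK8i, TL2i, 4i/L/b, NHSM-v, and t2iLGöY cells (edgeR), and 9 in LCDM (EPS) cells, where SOX2 was not called, at a mean of 329 against 271 CPM. In E-NHSM cells 4 were higher and 2 lower, beside 11.1% and 15.1% of all genes tested. In the other protocols 23.8% to 30.6% of all genes tested were lower. Except for SOX2 in LCDM (EPS), the levels fell in TL2i, 4i/L/b, NHSM-v, t2iLGöY, and LCDM (EPS) cells, against the label of pluripotent cells. For some genes the fall was partial. LIN28A was at a mean of 271 CPM in TL2i and 263 CPM in TL-CDK8i cells, against 573 CPM in primed cells. SOX2 had means of 74.6 to 109 CPM in TL2i, 4i/L/b, NHSM-v, and t2iLGöY cells, against 271 CPM. In bulk RNA, fewer cells of a type and less RNA per cell cannot be told apart.

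**Figure D1:**
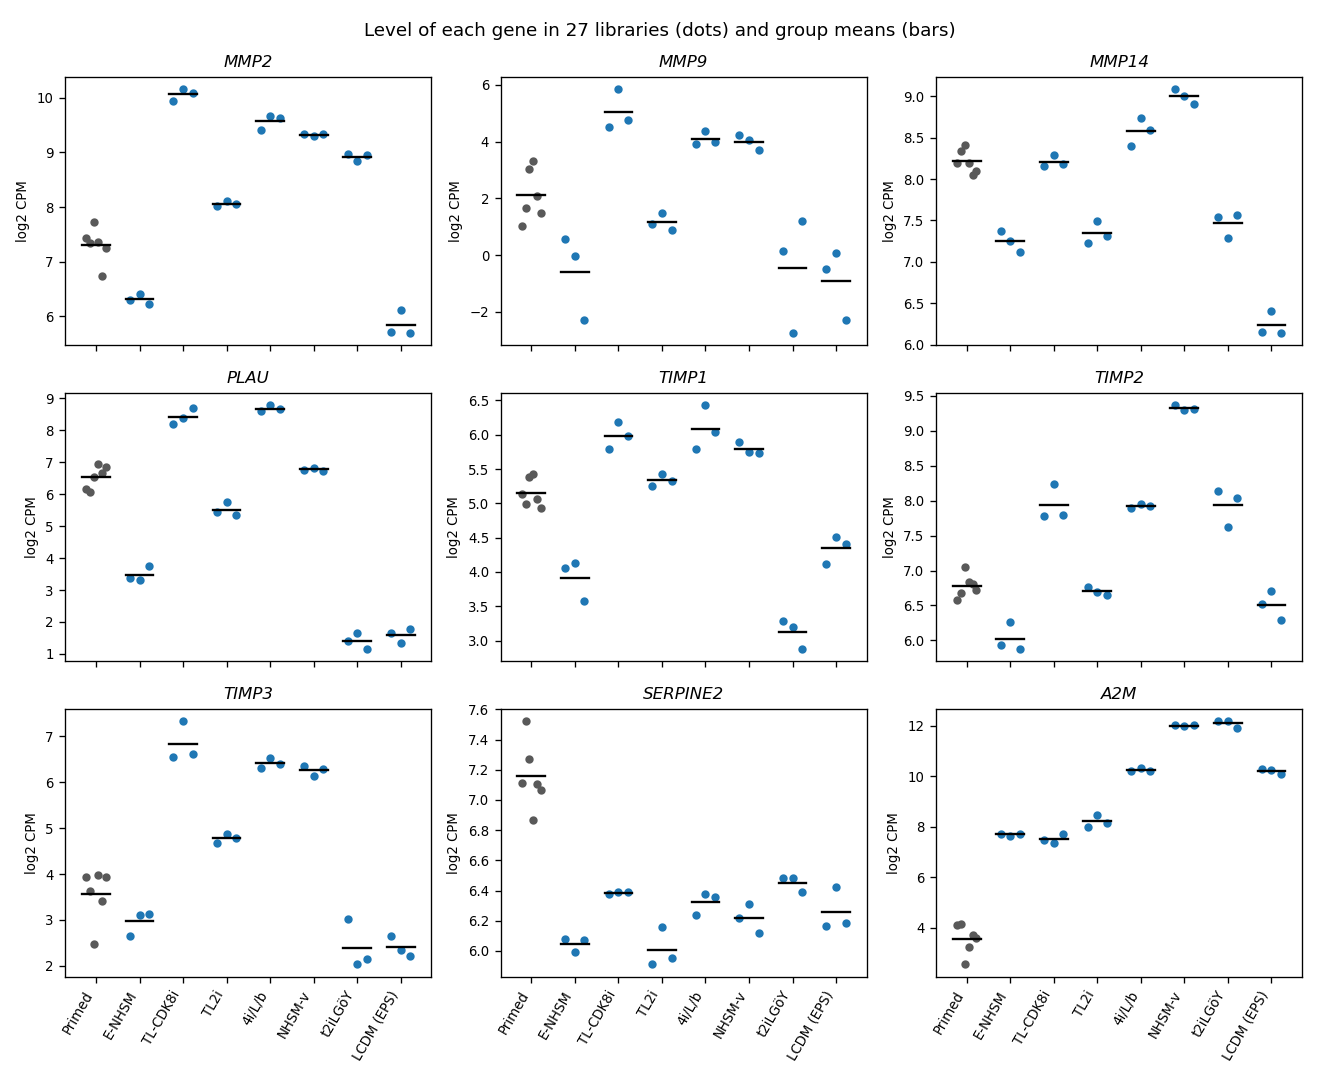
Level of each of the 9 genes on a log2 CPM scale with a prior count of 2 (vertical axes, which differ between panels) in the 27 libraries, by group (horizontal axes). Dots are libraries, gray for primed and blue for the 7 protocols, and bars are group means. A2M lay above the 6 primed libraries and SERPINE2 below them in every protocol, whereas each of the other 7 genes lay above them in 1 to 5 protocols and below them in 1 to 4, except TIMP3, which lay below them in none.

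Among the proteases, MMP2 rose in 5 protocols and fell in 2. Its primed libraries ranged from 106 to 211 CPM, with a median of 163. TL-CDK8i libraries were at 985, 1140, and 1092 CPM, and 4i/L/b libraries at 677, 818, and 793 CPM. Both groups lay entirely above the primed range. NHSM-v libraries held 650.5, 629, and 643 CPM, t2iLGöY libraries 503, 459, and 497 CPM, and TL2i libraries 260.0, 277, and 264 CPM. These 3 groups also lay above every primed library. E-NHSM libraries, at 78.2, 84.5, and 75.0 CPM, and LCDM (EPS) libraries, at 52.4, 68.9, and 51.8 CPM, lay entirely below. The order of the 8 groups was complete, in that the ranges of no neighbouring groups overlapped. On the log2 scale the differences from primed cells were 2.68 ± 0.15 (SE) in TL-CDK8i, 2.20 ± 0.15 in 4i/L/b, 1.97 ± 0.14 in NHSM-v, 1.62 ± 0.14 in t2iLGöY, and 0.73 ± 0.15 in TL2i. They were -1.03 ± 0.16 in E-NHSM and -1.48 ± 0.18 in LCDM (EPS), and the adjusted p was 0.0012 or less in all 7 (edgeR's quasi-likelihood test, Benjamini-Hochberg, 6 primed libraries against 3).

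MMP9 rose in 3 protocols and fell in 2, on few counts. Primed libraries ranged from 1.90 to 9.84 CPM, with a median of 3.55 and 17 to 115 counts. TL-CDK8i libraries were at 22.6 to 57.2 CPM, 4i/L/b libraries at 14.8, 20.8, and 15.9 CPM, and NHSM-v libraries at 18.6, 16.5, and 13.0 CPM. These 9 libraries lay above all 6 primed libraries, and MMP9 rose by 2.81 ± 0.45, 1.76 ± 0.46, and 1.68 ± 0.47 on the log2 scale (adjusted p = 0.000136, 0.00501, and 0.00634, edgeR). In E-NHSM cells, MMP9 was at 1.32, 0.834, and 0.0538 CPM, the last from 1 count, and in LCDM (EPS) cells at 0.569, 0.896, and 0.0541 CPM, the last also from 1 count. It fell there by 2.72 ± 0.90 and 3.25 ± 0.92 on the log2 scale (adjusted p = 0.0322 and 0.00786, edgeR). The fall in E-NHSM cells did not pass the threshold without primed library K1 (adjusted p = 0.0910), without E-NHSM replicate 2 (0.0834), or without E-NHSM replicate 3 (0.0991). In t2iLGöY cells 1 library held 0 counts, which allows up to 0.200 CPM, and the others were at 0.955 and 2.17 CPM. The difference of -2.20 ± 1.04 did not pass (adjusted p = 0.0875), although it did without t2iLGöY replicate 3 (adjusted p = 0.0491). TL2i libraries, at 1.70 to 2.68 CPM, overlapped the primed range, with a difference of -1.20 ± 0.63 (adjusted p = 0.129).

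MMP14, the membrane-anchored enzyme, spanned a narrower range. Its primed libraries held 264 to 339.8 CPM, with a median of 293. It rose in NHSM-v cells, at 542, 515, and 479 CPM (log2 difference 0.76 ± 0.09, adjusted p = 2.67e-06, edgeR). In 4i/L/b cells, at 338, 426, and 386 CPM, the difference of 0.32 ± 0.10 passed (adjusted p = 0.0115) with overlapping libraries, and did not pass without 4i/L/b replicate 2 (adjusted p = 0.0867). TL-CDK8i libraries, at 286, 312, and 291 CPM, lay within the primed range (difference -0.06 ± 0.09, adjusted p = 0.642). MMP14 fell in t2iLGöY, TL2i, E-NHSM, and LCDM (EPS) cells, with group means of 177 ± 17.9, 163 ± 15.8, 153 ± 13.5, and 75.5 ± 8.01 CPM (SD, n = 3 each). All 12 of these libraries were below the lowest primed library, with log2 differences of -0.72 ± 0.10, -0.87 ± 0.10, -0.97 ± 0.10, and -1.98 ± 0.11.

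PLAU had the widest spread over groups after A2M, with the highest group mean 161 times the lowest. Primed libraries ranged from 67.4 to 124 CPM, with a median of 97.0. PLAU was at 385, 439.5, and 402 CPM in 4i/L/b cells and at 292, 332, and 414 CPM in TL-CDK8i cells. Those groups overlapped each other and lay above every primed library, with log2 differences of 2.05 ± 0.16 and 1.80 ± 0.17 (adjusted p = 1.57e-07 and 1.16e-06, edgeR). NHSM-v libraries, at 108, 113, and 106 CPM, lay within the primed range (difference 0.17 ± 0.17, adjusted p = 0.425). TL2i libraries were at 43.3, 53.8, and 40.2 CPM, and E-NHSM libraries at 10.3, 9.84, and 13.2 CPM. LCDM (EPS) libraries held 3.02, 2.40, and 3.30 CPM, and t2iLGöY libraries 2.52, 3.00, and 2.10 CPM. All 12 of those libraries were below the primed range, and the last 2 groups overlapped. PLAU fell by 1.06 ± 0.20 in TL2i, by 3.11 ± 0.22 in E-NHSM, by 5.04 ± 0.26 in LCDM (EPS), and by 5.20 ± 0.27 in t2iLGöY on the log2 scale (adjusted p of 0.000466 or less, edgeR). The 6 primed columns carry the letters J and K, 3 each, and PLAU in the J columns lay below its range of 102 to 124 CPM in the K columns. MMP14 and SERPINE2 also did not overlap between J and K, being lower in K. What the letters mark is not given in the sources used here. The labels divide the primed samples into sets of 3 by title but differently by protocol name, and they do not tie either to the letters, so all 6 served as one reference. Against the J columns alone, PLAU was higher in NHSM-v cells (log2 difference 0.52, adjusted p = 0.00651), and against the K columns alone the difference was -0.082 (adjusted p = 0.508).

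Among the inhibitors, TIMP1 rose in 3 protocols and fell in 3. Primed libraries held 30.3 to 42.9 CPM, with a median of 34.2. Group means were 69.0 ± 15.6 CPM in 4i/L/b, 63.7 ± 8.82 in TL-CDK8i, and 55.4 ± 3.53 in NHSM-v cells (SD, n = 3 each), and all 9 libraries lay above the primed range. The log2 differences were 0.90 ± 0.16, 0.78 ± 0.15, and 0.60 ± 0.15 (adjusted p = 0.00033, 0.000691, and 0.00338, edgeR). TL2i libraries, at 38.1, 42.7, and 39.9 CPM, lay within it (difference 0.17 ± 0.15, adjusted p = 0.375). LCDM (EPS), E-NHSM, and t2iLGöY cells had means of 20.3 ± 2.78, 15.2 ± 3.01, and 8.62 ± 1.24 CPM, with every library below the primed range. TIMP1 fell there by 0.82 ± 0.18, 1.24 ± 0.20, and 2.03 ± 0.22 on the log2 scale (adjusted p of 0.00134 or less).

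TIMP2, which bridges MMP14 and the MMP2 proenzyme, was highest in NHSM-v cells, at 659.7, 627, and 635 CPM against 95.6 to 133 CPM in primed cells, whose median was 109. It also rose in TL-CDK8i, t2iLGöY, and 4i/L/b cells, whose libraries overlapped one another, from 196 to 303 CPM. The log2 differences were 2.52 ± 0.09, 1.12 ± 0.12, 1.19 ± 0.12, and 1.10 ± 0.10 (adjusted p of 4.06e-06 or less, edgeR). It fell in E-NHSM cells, at 60.8, 76.5, and 58.8 CPM (difference -0.76 ± 0.13, adjusted p = 0.000217). In TL2i cells, at 100.2 to 109 CPM, it was within the primed range (difference -0.09 ± 0.11, adjusted p = 0.523). LCDM (EPS) libraries, at 78.3, 91.2, and 104 CPM, overlapped that range, and the difference of -0.27 ± 0.12 did not pass (adjusted p = 0.0742), although it did without primed library J1 (adjusted p = 0.0496).

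TIMP3, which binds to the matrix itself, was at 5.43 to 15.6 CPM in primed libraries, with a median of 13.6, and library J3 was the lowest. TL-CDK8i libraries were at 93.9, 161, and 97.4 CPM, 4i/L/b libraries at 79.0, 92.1, and 83.9 CPM, NHSM-v libraries at 82.1, 69.7, and 77.6 CPM, and TL2i libraries at 25.3, 28.9, and 27.6 CPM. All 12 lay above the primed range, with log2 differences of 3.19 ± 0.25, 2.73 ± 0.23, 2.60 ± 0.24, and 1.14 ± 0.27 (adjusted p of 0.00302 or less, edgeR). LCDM (EPS) cells, at 4.49 to 6.15 CPM, and t2iLGöY cells, at 3.94 to 7.91 CPM, overlapped the lowest primed library. The differences there, -1.25 ± 0.36 and -1.17 ± 0.41, passed (adjusted p = 0.00919 and 0.0261). Neither passed against the J primed columns alone (adjusted p = 0.0652 and 0.139), and the one in t2iLGöY cells did not pass without t2iLGöY replicate 2 (adjusted p = 0.101) or replicate 3 (adjusted p = 0.0961). The difference of -0.67 ± 0.34 in E-NHSM cells did not pass (adjusted p = 0.164), although it did without primed library J3 (adjusted p = 0.0299).

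SERPINE2 was lower in all 7 protocols. It is on a gene list that the study chose on these libraries, so its direction is not independent evidence. Primed libraries held 117 to 184 CPM, with a median of 138. t2iLGöY libraries held 89.2, 89.3, and 83.6 CPM, TL-CDK8i libraries 83.0, 83.7, and 83.7 CPM, and 4i/L/b libraries 75.2, 82.9, and 82.0 CPM. Group means were 76.7 ± 7.68 CPM in LCDM (EPS), 74.2 ± 4.93 in NHSM-v, 66.0 ± 2.24 in E-NHSM, and 64.3 ± 5.99 in TL2i cells (SD, n = 3 each). All 21 libraries lay below the lowest primed library. The log2 differences ran from -0.69 ± 0.13 in t2iLGöY to -1.16 ± 0.14 in TL2i cells, with adjusted p of 0.000393 or less in each (edgeR). The 7 protocol means spanned only 64.3 to 87.3 CPM, and 4 of the 6 pairs of neighbours in this order overlapped.

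A2M, the gene picked for its rise, was at 5.71 to 17.7 CPM in primed libraries, with a median of 12.5, from 40 to 188 counts. In the 3 protocols where it stood lowest, it was at 211, 201, and 212 CPM in E-NHSM, at 179, 166, and 209 CPM in TL-CDK8i, and at 257, 357, and 287 CPM in TL2i cells. It was at 1168, 1276, and 1182 CPM in 4i/L/b and at 1240, 1205, and 1086 CPM in LCDM (EPS) cells. The highest levels were 4169, 4017, and 4144 CPM in NHSM-v and 4600, 4634, and 3885 CPM in t2iLGöY cells. Group means were 14.8 times the primed mean in TL-CDK8i, 16.7 in E-NHSM, 24.1 in TL2i, 94.4 in LCDM (EPS), 97.0 in 4i/L/b, 329.8 in NHSM-v, and 351 times in t2iLGöY cells. The libraries of t2iLGöY and NHSM-v overlapped, as did those of 4i/L/b and LCDM (EPS) and those of E-NHSM and TL-CDK8i. The 7 protocols thus stood at 4 levels, with TL2i between the lowest and the middle pairs. Liver cells are a known source of A2M, and a list of 14 liver and endoderm genes summed to 30.4 to 39.6 CPM in primed cells. The sum was higher in TL2i cells, at 215 to 370 CPM, where 8 of 10 tested genes were higher and 1 lower, with HNF4A, a regulator of liver and gut endoderm, at a mean of 16.7 CPM and 0 in primed cells. It was 128 to 174 CPM in t2iLGöY, 51.6 to 62.0 in 4i/L/b, and 36.6 to 75.9 CPM in TL-CDK8i cells, with 10, 6, and 6 of the 14 genes at 3 counts or fewer in every library. In E-NHSM, LCDM (EPS), and NHSM-v cells it was 11.9 to 15.6, 9.53 to 26.9, and 1.95 to 5.98 CPM, with 7, 4, and 8 genes at that floor. In t2iLGöY cells most of the sum was TTR, at a mean of 148 CPM, and 1 of 6 tested genes was higher and 3 lower. Of the genes tested, 3 of 9 were higher and 2 lower in 4i/L/b cells, and 1 of 7 was higher and 0 lower in TL-CDK8i cells. In E-NHSM, LCDM (EPS), and NHSM-v cells 0 were higher, and 1, 2, and 4 of 6 were lower. Of all genes tested, 25.6% were higher and 25.2% lower in TL2i, and 27.1% and 27.2% in t2iLGöY cells. These shares were 26.6% and 29.0% in 4i/L/b, 22.3% and 23.8% in TL-CDK8i, and 11.1% and 15.1% in E-NHSM cells. They were 28.2% and 28.9% in LCDM (EPS) and 28.0% and 30.6% in NHSM-v cells. Albumin was at 3 counts or fewer in every library outside TL2i. Its mean in TL2i cells was 0.211 CPM, where 3 counts were worth 0.147 to 0.212 CPM, and it was not tested there. The part of such cells in the level of A2M was not tested.

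**Figure D2:**
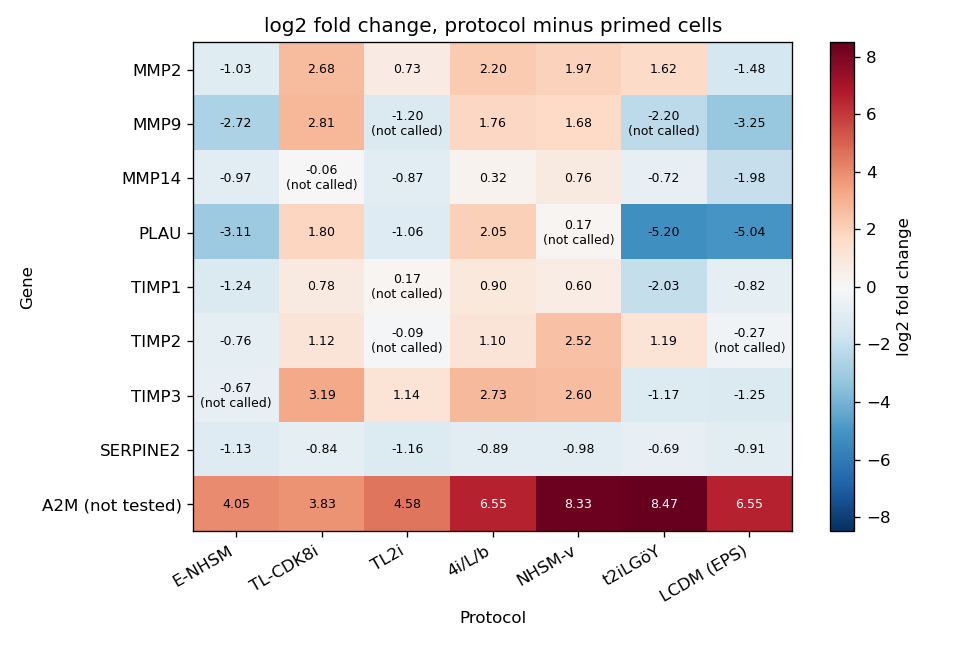
Log2 fold change of each gene (rows) in each protocol against primed cells (columns), with color for size and sign. Differences marked as not called had an adjusted p of 0.05 or more in edgeR's quasi-likelihood test, and A2M was not tested. Rises fill most of the TL-CDK8i, 4i/L/b, and NHSM-v columns, and falls fill the E-NHSM and LCDM (EPS) columns outside A2M.

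Counted over the 8 genes other than A2M, the protocols split by direction. In 4i/L/b cells 7 were higher and 1 lower, where 26.6% of all genes tested were higher and 29.0% lower. In TL-CDK8i cells 6 were higher and 1 lower, beside 22.3% and 23.8% of all genes. In NHSM-v cells 6 were higher and 1 lower, beside 28.0% and 30.6%. The single lower gene was SERPINE2 in each of these 3 groups. In E-NHSM cells 0 were higher and 7 lower, beside 11.1% and 15.1%, and in LCDM (EPS) cells 0 were higher and 7 lower, beside 28.2% and 28.9%. At an unadjusted p under 0.05 in edgeR, and at an adjusted p under 0.05 in DESeq2, 0 of the 8 were higher in either group. In t2iLGöY cells 2 were higher, MMP2 and TIMP2, and 5 lower, beside 27.1% and 27.2%. In TL2i cells 2 were higher, MMP2 and TIMP3, and 3 lower, beside 25.6% and 25.2%, which is near the share over all genes. The median log2 difference over the 8 genes was 1.46 in TL-CDK8i, 1.43 in 4i/L/b, 1.22 in NHSM-v, -0.48 in TL2i, -0.94 in t2iLGöY, -1.08 in E-NHSM, and -1.36 in LCDM (EPS) cells, and the median over all genes tested was between -0.02 and 0.07. All 7 comparisons share the 6 primed libraries. The 8 genes were chosen with earlier results of these data known, so counts beside the share over all genes describe them and do not test the set.

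Fibroblast and mesenchyme markers were highest in the 3 protocols in which most of the 8 genes rose, but were also above primed cells in TL2i and t2iLGöY cells, where the medians of the 8 were below 0. The sum over a list of 14 such genes was 1259 to 2531 CPM in primed, 13118 to 17002 in 4i/L/b, 9419 to 12139 in TL-CDK8i, and 10174 to 10601 CPM in NHSM-v cells. It was 3466 to 6586 CPM in TL2i and 3742 to 4380 CPM in t2iLGöY cells, and lower than in primed cells in LCDM (EPS), at 867 to 1140 CPM, and E-NHSM, at 587 to 620 CPM. Of the genes tested, 11 of 14 were higher and 1 lower in 4i/L/b cells (26.6% and 29.0% of all genes tested). TL-CDK8i cells had 10 of 14 higher and 0 lower (22.3% and 23.8%), and NHSM-v cells 9 and 0 of 14 (28.0% and 30.6%). TL2i cells had 10 of 14 higher and 2 lower (25.6% and 25.2%), and t2iLGöY cells 4 and 4 of 12 (27.1% and 27.2%). LCDM (EPS) cells had 3 of 14 higher and 6 lower (28.2% and 28.9%), and E-NHSM cells 2 and 7 of 12 (11.1% and 15.1%). One gene of the list, FAP, is also among the proteases below. Of the defining matrix genes, LUM and DCN were at 3 counts or fewer in every library of primed, E-NHSM, and t2iLGöY cells, and LUM was at 32.2 to 61.9 CPM in 4i/L/b cells. The part of such cells in these results was not tested.

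Protocols were then compared with each other in a fit of all 8 groups, for which the primed libraries add only to the estimate of spread. Over the 21 pairs of protocols and 9 genes, 144 of 189 differences passed (edgeR, adjusted p under 0.05), where 46.3% of all gene and pair combinations did. The 9 genes were chosen with earlier results of these data known, so the share over all genes is no test of the set. By gene, the count of pairs that differed was 20 of 21 for MMP2, 19 for PLAU, 18 for A2M, MMP14, and TIMP1, 17 for TIMP2, 16 for TIMP3, 13 for MMP9, and 5 for SERPINE2.

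TL-CDK8i and TL2i share tamoxifen and LIF and differ in their kinase inhibitors. All 9 genes differed between them, where 45.0% of genes tested did. The 8 genes other than A2M were higher in TL-CDK8i cells. MMP9 was higher by 4.05 ± 0.74 on the log2 scale, at 22.6 to 57.2 against 1.70 to 2.68 CPM (adjusted p = 4.49e-05, edgeR). PLAU was higher by 2.92 ± 0.18, at 292 to 414 against 40.2 to 53.8 CPM (adjusted p = 6.17e-14). For MMP2 and TIMP3 the differences were 2.01 ± 0.14 and 2.10 ± 0.25, and for TIMP2, MMP14, and TIMP1 they were 1.26 ± 0.13, 0.86 ± 0.11, and 0.66 ± 0.17. SERPINE2 was higher by 0.38 ± 0.12 (adjusted p = 0.00994), which did not pass without TL2i replicate 1 (adjusted p = 0.0637) or TL2i replicate 3 (adjusted p = 0.0501). A2M was lower in TL-CDK8i cells, at 166 to 209 against 257 to 357 CPM (log2 difference -0.70 ± 0.16, adjusted p = 0.000679).

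E-NHSM and NHSM-v are versions of one medium, and 8 of the 9 genes were lower in E-NHSM cells, where 63.1% of genes tested differed in either direction. A2M was at 201 to 212 CPM in E-NHSM and 4017 to 4169 CPM in NHSM-v cells, a log2 difference of -4.30 ± 0.18 (adjusted p = 1.53e-18, edgeR). MMP9 differed by -4.41 ± 0.78, and PLAU, TIMP3, TIMP2, and MMP2 by -3.30 ± 0.19, -3.30 ± 0.27, -3.29 ± 0.14, and -3.02 ± 0.15. TIMP1 and MMP14 differed by -1.86 ± 0.18 and -1.75 ± 0.11. SERPINE2, at 63.4 to 67.4 and 69.3 to 79.1 CPM, was not called (difference -0.17 ± 0.12, adjusted p = 0.217).

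**Figure D3:**
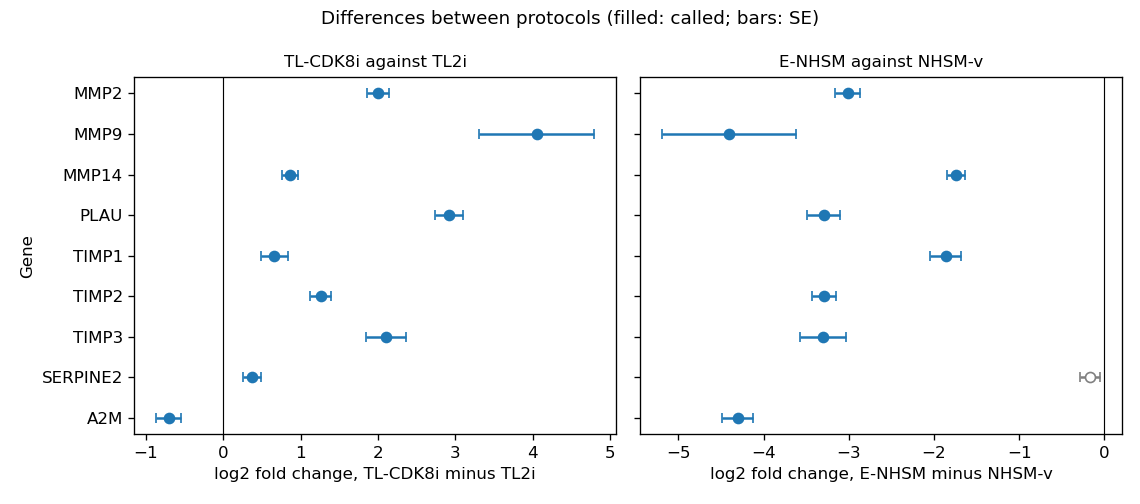
Log2 fold change of each gene (rows) between TL-CDK8i and TL2i cells (left) and between E-NHSM and NHSM-v cells (right), from the fit of all 8 groups, with 3 libraries in each protocol. Bars are standard errors, filled points passed an adjusted p of 0.05 in edgeR, and the open point is SERPINE2, which did not pass on the right.

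For the 7 genes that rose in some protocols and fell in others, the highest protocol was compared with the lowest. These extremes were chosen on the same libraries, so a difference was built into the choice and the values are descriptive. TL-CDK8i and LCDM (EPS) cells were the extremes for MMP2, MMP9, and TIMP3, with log2 differences of 4.22 ± 0.16, 6.09 ± 0.84, and 4.50 ± 0.29 (adjusted p of 3.32e-07 or less, edgeR), where 56.5% of all genes tested differed. 4i/L/b and t2iLGöY cells were the extremes for PLAU and TIMP1, with differences of 7.32 ± 0.24 and 3.00 ± 0.19, where 35.2% of genes differed. NHSM-v and LCDM (EPS) cells were the extremes for MMP14, with a difference of 2.76 ± 0.11, where 47.8% of genes differed. For TIMP2 they were NHSM-v and E-NHSM cells, given above.

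The mRNA level of an enzyme relative to that of an inhibitor it is known to bind was described by the ratio of their CPM within a library. Protein, activation of proenzymes, and inhibition were not measured. These 3 pairs were chosen after the values were seen, and since transcript lengths were not used, the ratios can be compared between groups but not read as molar ratios. MMP2 to TIMP2 was 0.954 to 1.80 in primed libraries, 3.76 to 4.90 in TL-CDK8i, 2.85 to 3.29 in 4i/L/b, and 2.39 to 2.69 in TL2i cells. It was 0.986 to 1.01 in NHSM-v cells, where both genes rose, and 0.574 to 0.662 in LCDM (EPS) cells, below every primed library. MMP9 to TIMP1 was 0.0543 to 0.230 in primed libraries and 0.409 to 0.784 in TL-CDK8i cells. PLAU to SERPINE2 was 0.367 to 1.06 in primed, 4.90 to 5.30 in 4i/L/b, and 3.52 to 4.94 in TL-CDK8i libraries, and fell to between 0.0251 and 0.0454 in t2iLGöY and LCDM (EPS) libraries.

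**Figure D4:**
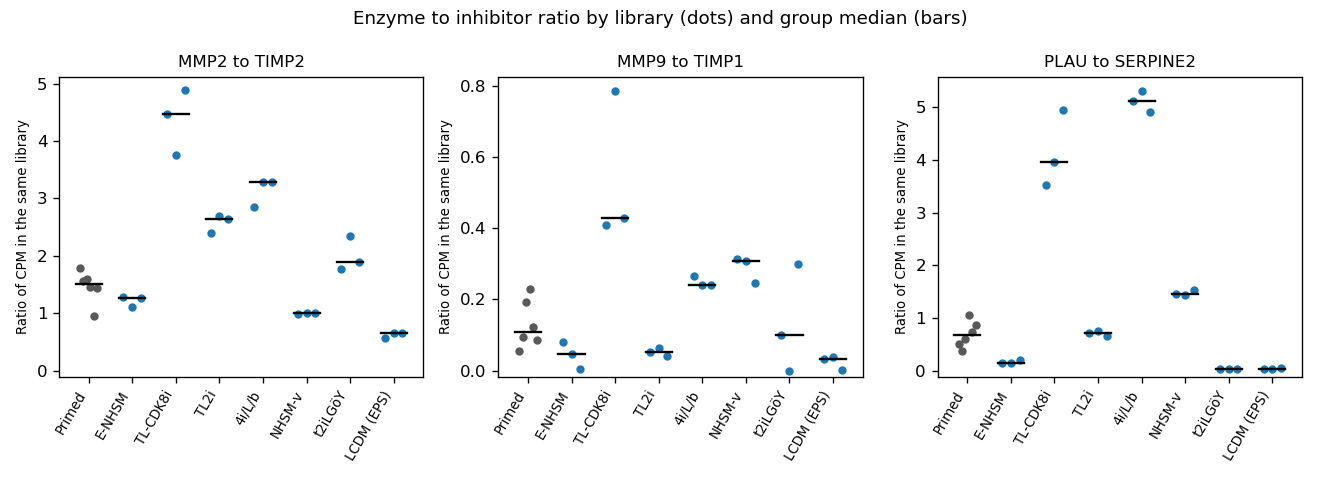
Ratio of the CPM of an enzyme to that of an inhibitor in the same library (vertical axes, linear, which differ between panels), by group (horizontal axes), for MMP2 to TIMP2, MMP9 to TIMP1, and PLAU to SERPINE2. Dots are libraries and bars are group medians. TL-CDK8i and 4i/L/b libraries lie above all primed libraries in each panel.

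Over the 27 libraries, MMP9, TIMP1, TIMP3, and PLAU followed one another most closely. The Pearson correlation of log2 CPM was 0.91 between TIMP1 and PLAU (Spearman 0.90), 0.85 between MMP9 and PLAU (0.87), and 0.85 between TIMP1 and TIMP3 (0.90). MMP2 was most like TIMP2 among the 9, at 0.82 (0.82), and A2M was also nearest to TIMP2, at 0.55 (0.44). SERPINE2 was nearest to MMP14, at 0.32 (0.32). Among 11312 candidates with a mean of at least 5 CPM, genes close to PLAU were BCAR1 (0.96) and PDGFB (0.95). Those most like MMP2 were SPARC (0.96), KLF6 (0.94), and COL1A1 (0.93), of which SPARC and COL1A1 encode matrix proteins. MMP9 was nearest to BHLHE40 (0.92), KCTD10 (0.91), and EDN1 (0.91), and MMP14 to NPTN (0.94), ACVR1 (0.93), and THY1 (0.93). TIMP1 was nearest to FLNC (0.94), TFPI2 (0.93), and PLAU (0.91), TIMP2 to ANKRD52 (0.94), SIAH3 (0.93), and SFXN3 (0.93), and TIMP3 to PTK7 (0.96), KLF5 (0.95), and SEMA7A (0.94). A2M was nearest to ARL10 (0.96), HECTD4 (0.95), and CDK19 (0.95), and SERPINE2 to PPP2R2B (0.91), CTTNBP2 (0.85), and HSPA8 (0.85). These values describe 27 libraries that share 8 groups and one scaling, and carry no p. With Spearman correlation in place of Pearson, 8 of the 27 names recurred.

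The wider set of proteases and inhibitors was described by 6 lists of 104 genes, of which 100 were in the tables and 77 to 83 were tested in each protocol. The lists too were chosen with earlier results of these data known. In 4i/L/b cells 42 were higher and 19 lower, in NHSM-v cells 39 and 26, in TL-CDK8i cells 37 and 15, and in TL2i cells 34 and 19. In t2iLGöY cells 23 were higher and 33 lower, in LCDM (EPS) cells 16 and 33, and in E-NHSM cells 5 and 20. The 25 called in E-NHSM cells became 38 when all 8 groups were fitted together. Expressed as shares of the listed genes tested, 50.6% in 4i/L/b and 46.8% in TL-CDK8i cells were higher, beside 26.6% and 22.3% of all genes, and 42.3% in t2iLGöY and 41.2% in LCDM (EPS) cells were lower, beside 27.2% and 28.9%. The median log2 difference of the listed genes was 0.79 in 4i/L/b, 0.66 in NHSM-v, 0.57 in TL-CDK8i, 0.54 in TL2i, -0.22 in t2iLGöY, -0.25 in E-NHSM, and -0.63 in LCDM (EPS) cells. In TL2i cells the listed genes and the 8 above differed in the sign of their medians. There, 17 of 27 ADAM and ADAMTS genes were higher and 4 lower, beside 25.6% and 25.2% of all genes.

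**Figure D5:**
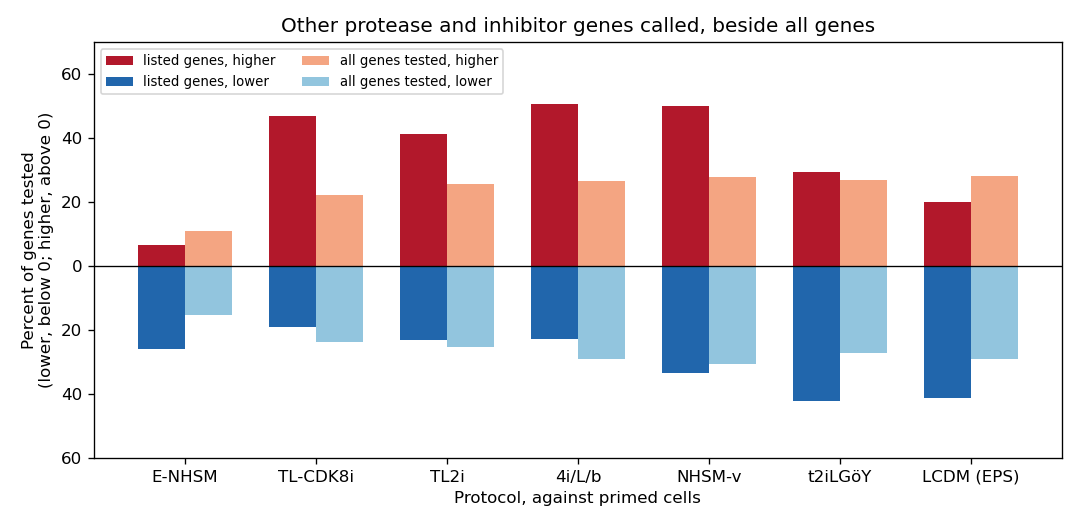
Share of genes tested that were called higher (above 0) or lower (below 0) than in primed cells, in percent, for the 6 lists of other proteases and inhibitors (dark bars) and for all genes tested (light bars), by protocol. The dark bars for higher genes exceed the light ones most in TL-CDK8i, 4i/L/b, and NHSM-v cells, and those for lower genes exceed them most in t2iLGöY and LCDM (EPS) cells.

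Within these lists, 3 genes were lower in all 7 protocols, which share the primed libraries. In single protocols 15.1% to 30.6% of all genes tested were lower, and the share lower in all 7 was not counted. MMP25, a membrane-bound metalloproteinase, was at 124 to 186 CPM in primed libraries, and its log2 difference ran from -0.73 in E-NHSM to -8.03 in t2iLGöY cells. PLAUR, the receptor that holds urokinase at the cell surface, was at 11.8 to 31.7 CPM in primed libraries, with differences from -0.72 in TL2i to -3.65 in t2iLGöY cells. It was lower in 4i/L/b and TL-CDK8i cells too (adjusted p = 0.0282 and 0.0294, edgeR), where PLAU rose. PLAUR libraries of these groups overlapped the primed range, as did those of TL2i and NHSM-v cells (adjusted p = 0.0402 and 0.00943). SERPINB6, an intracellular serine protease inhibitor, was at 307 to 369 CPM in primed libraries, with differences from -0.66 in E-NHSM to -4.41 in LCDM (EPS) cells.

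ANXA2, a plasminogen receptor subunit, rose in TL-CDK8i, TL2i, 4i/L/b, and NHSM-v cells, by 0.58 to 1.57, and fell in the other 3. LRP1, the receptor that clears A2M, was higher in TL-CDK8i (0.79) and NHSM-v cells (0.24), lower in E-NHSM (-0.64), TL2i (-0.29), t2iLGöY (-1.25), and LCDM (EPS) cells (-2.05), and not called in 4i/L/b cells (0.04). Its chaperone LRPAP1 was higher in TL2i (0.65) and NHSM-v cells (0.29), lower in LCDM (EPS) cells (-0.43), and not called in the other 4.

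Of the other genes that were the most abundant in their lists, MMP16, a membrane-type metalloproteinase, rose in 5 protocols, by 0.53 to 1.60, and was not called in E-NHSM and TL-CDK8i cells. ADAM19 rose in TL-CDK8i (0.79) and NHSM-v cells (1.23) and fell in the other 5, and ADAM10, a sheddase of many surface proteins, rose in NHSM-v cells (0.42), was not called in TL-CDK8i cells (0.16), and fell in the other 5. The secreted serine protease HTRA1 rose in TL-CDK8i (1.72), NHSM-v (0.86), and 4i/L/b cells (0.64) and fell in the other 4. The proprotein convertase PCSK7 rose in 4i/L/b (1.07) and NHSM-v cells (0.59), fell in E-NHSM (-0.75), t2iLGöY (-1.05), and LCDM (EPS) cells (-1.17), and was not called in TL-CDK8i and TL2i cells. SPINT2, which inhibits membrane serine proteases, was lower in 6 protocols, from -0.88 in t2iLGöY to -1.98 in LCDM (EPS) cells, and was not called in E-NHSM cells (0.11).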

How the data were processed

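The authors prepared directional mRNA libraries from total RNA and deposited raw counts of reads per gene symbol, 1 column per library, unnormalized and not pooled. The submitters' processing notes name bcl2fastq, cutadapt, HISAT2, and HTSeq, with no version, and the genome build, annotation, and counting settings are not given in the sources used here, so the handling of reads shared between related genes could not be examined. Columns of the 7 protocols were matched to samples by protocol and number, and the 6 primed columns to their group only. In 36 pairs of libraries within a group, counts differed beyond sampling noise (chi-square per gene of 3.98 to 29.8), so none was a duplicate.

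TMM factors, CPM, and quasi-likelihood tests were obtained from the deposited counts in edgeR 4.0.16 (limma 3.58.1, R 4.3.3). Each protocol was fitted with the 6 primed libraries on genes kept by filterByExpr, and protocols were compared in a fit of all 8 groups, both without a block. P-values were adjusted by Benjamini-Hochberg over all genes tested, with a threshold of 0.05. Standard errors were derived by dividing each log2 fold change by the square root of its F statistic. Total counts of 7111886 to 20760914 per library set the precision of low values.

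The 9 genes and all lists were chosen with earlier results of these data known. Named list genes are those called in one direction in all 7 protocols and the 2 of highest mean CPM per list. The values of 1 gene that these rules name are not reported here. Genes most like each of the 9 are the 3 of highest Pearson correlation of log2 CPM (prior count 2) among genes with a mean of at least 5 CPM. The lists cover other matrix metalloproteinases, ADAM and ADAMTS proteases, plasminogen activation, proprotein convertases and membrane serine proteases, other protease inhibitors, macroglobulin relatives with the A2M receptor, and markers of pluripotency, fibroblasts, liver and endoderm, neural progenitors, and endothelium and blood.

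Alternatives were DESeq2 1.42.0, upper-quartile factors, no filter, a mean of at least 1 CPM, all 8 groups in one fit, J or K primed columns only, each library left out, and, between protocols, a replicate block. The procedures were tested on simulated counts, where DESeq2 made more false calls than its nominal rate and edgeR stayed close to it. Far fewer genes were changed there than were called in the data, and none by as much as the largest changes. The simulation thus cannot show that these rates hold in the data.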

Additional observations from a re-analysis of the deposited data

Results flagged for a closer look

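For 7 of the 9 genes, the difference from primed cells had opposite signs in different protocols, and the difference between the protocol with the highest and the one with the lowest level was tested directly in the fit of all 8 groups. On the log2 scale it was 4.22 for MMP2, 6.09 for MMP9, and 4.50 for TIMP3 between TL-CDK8i and LCDM (EPS) cells. It was 2.76 for MMP14 between NHSM-v and LCDM (EPS) cells, 3.00 for TIMP1 and 7.32 for PLAU between 4i/L/b and t2iLGöY cells, and 3.29 for TIMP2 between NHSM-v and E-NHSM cells. Each passed edgeR's quasi-likelihood test with an adjusted p of 3.32e-07 or less, with all 3 libraries of the higher protocol above all 3 of the lower. The extremes were chosen on these libraries, so the sizes, p-values, and separation of libraries describe them and are no independent evidence. In the 6 primed libraries, the highest or lowest value of each of the 9 genes was within the range that Dixon's criterion allows, a criterion that chance alone exceeds in about 1 of 20 groups.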

How the results depend on the processing

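Over the alternatives, the number of the 8 genes called against primed cells stayed within 1.5 times the value given in every protocol, at 5 in TL2i and 7 in TL-CDK8i cells under each alternative, 7 or 8 in 4i/L/b and NHSM-v cells, and 6 to 8 in the other 3. The number of listed protease genes called moved by more in 1 case, from 25 to 38 in E-NHSM cells when all 8 groups were fitted together. Of the differences of single genes, 2 that were not called turned sign against the K columns alone, MMP14 in TL-CDK8i cells (0.050) and PLAU in NHSM-v cells (-0.082). Against the J columns alone, MMP9 in E-NHSM cells (adjusted p = 0.132) and MMP14 in 4i/L/b cells (0.0506) did not pass in edgeR, nor did TIMP3 in t2iLGöY and LCDM (EPS) cells. MMP9 in t2iLGöY cells passed with DESeq2 (adjusted p = 0.0290) and in the fit of 8 groups (0.00638), and TIMP3 in E-NHSM and TIMP2 in LCDM (EPS) cells passed in that fit (0.0255 and 0.0423) and against the K columns alone (0.0421 and 0.0467). The cause was not tested. Among the libraries left out, those that changed a call are named beside the gene. Between protocols, 140 to 151 differences of 189 passed under the alternatives in settings and 141 to 146 with 1 library left out. With a replicate block on the 21 protocol libraries 150 passed, and 151 on the same libraries without it. The numbers of replicates are shared by the protocols but did not pair their libraries, since the deviations of 63 same-numbered pairs correlated at -0.13 to 0.06, 0 of them over 0.1, and 1 of 21 libraries was most like its own number. The primed columns carry no sample number, so no block could be fitted against them. Values near 3 counts, in MMP9 above all, limit what depth can show.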

Other observations

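Counts of genes called in the 6 lists of other proteases and inhibitors are given beside the share of all genes tested, with no test between lists. In TL-CDK8i cells, where 22.3% of all genes were higher and 23.8% lower, 7 of 11 other matrix metalloproteinases were higher and 1 lower, 14 of 26 ADAM and ADAMTS proteases were higher and 3 lower, and 5 of 8 other genes of plasminogen activation were higher and 1 lower. In 4i/L/b cells, beside 26.6% and 29.0%, 17 of 26 ADAM and ADAMTS proteases were higher and 6 lower, and 9 of 18 other protease inhibitors were higher and 5 lower. In NHSM-v cells, beside 28.0% and 30.6%, 4 of 10 other matrix metalloproteinases were higher and 4 lower, and 4 of 7 macroglobulin relatives with the A2M receptor were higher and 2 lower. In LCDM (EPS) cells, beside 28.2% and 28.9%, 8 of 10 proprotein convertases and membrane serine proteases and 5 of 8 genes of plasminogen activation were lower, and 5 of 19 other inhibitors were higher and 9 lower. In t2iLGöY cells, beside 27.1% and 27.2%, 7 of 9 proprotein convertases and membrane serine proteases were lower. There, 12 of 26 ADAM and ADAMTS proteases were higher and 6 lower. Not all lists thus went one way within a protocol. Of the convertases and membrane serine proteases, 3 of 10 were higher and 5 lower in TL-CDK8i, and 5 of 11 higher and 5 lower in 4i/L/b cells. Of 17 other inhibitors in TL-CDK8i cells, 5 were higher and 5 lower. Of 26 ADAM and ADAMTS proteases in LCDM (EPS) cells, 7 were higher and 5 lower.

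Among the other markers, neural progenitor genes were higher in 10 of 10 tested in LCDM (EPS), 9 of 10 in t2iLGöY and NHSM-v, 8 of 10 in 4i/L/b, 7 of 10 in TL2i, and 6 of 8 in TL-CDK8i cells, and in E-NHSM cells 1 of 6 was higher and 1 lower (edgeR). In NHSM-v, t2iLGöY, and TL-CDK8i cells 1 was lower, which was NES, as in E-NHSM cells. Of all genes tested, 11.1% were higher in E-NHSM cells and 22.3% to 28.2% in the other protocols. The neural genes summed to 2239 to 2576 CPM in primed cells. Almost all of it was NES, a filament gene of progenitors with a mean of 2430 CPM, so the sum moved less than the other members. The sum was above every primed library in LCDM (EPS), at 5780 to 5968 CPM, and t2iLGöY cells, at 4321 to 4883 CPM. So it was in NHSM-v, at 2989 to 3009, 4i/L/b, at 2909 to 3139, and TL2i cells, at 2755 to 2945 CPM. It was below every primed library in TL-CDK8i, at 2044 to 2150 CPM, and E-NHSM cells, at 1233 to 1368 CPM. A list of 8 endothelial and blood genes summed to 164 to 213 CPM in TL-CDK8i cells and 99.4 to 132 CPM in primed cells, and to 19.9 to 89.2 CPM in the other 6 groups. Of 6 tested in TL-CDK8i cells, 1 was higher, TEK, at a mean of 132 against 31.3 CPM in primed cells. There, 1 was lower, KDR, at 28.8 against 68.2 CPM, and 4 were not called, where 22.3% of all genes were higher and 23.8% lower. PTPRC, the pan-leukocyte gene, was at 0 to 4 counts in TL2i cells and at 3 counts or fewer in every library of the other 7 groups. The part of these cells in the levels of the 9 genes was not tested.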
